A study of Mus musculus with 3 samples.

Results

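Stathmins and the growth-cone phosphoproteins GAP-43, BASP1, MARCKS and MARCKSL1 are cytoskeletal and membrane regulators of growing axons. The members described here are 10 genes taken by name, with earlier results of these data known. They are Stmn1, Stmn2, Stmn3, Stmn4, Gap43, Basp1, Marcks and Marcksl1, together with Sprr1a and Cend1. All 10 were found among the 41388 genes that the files list. Each was measured by RNA sequencing in 3 libraries, named A, B and D, which form 1 group with no control population. The cells were sorted for green fluorescence from dorsal root ganglia (levels T11 to S1) of C57BL/6 mouse embryos at day 14.5. The genotype label is Tg(Ret-EGFP)SJ, while the series text describes EGFP placed in the Ret locus of heterozygotes, so all libraries carry the reporter and the state of the Ret alleles is given in conflicting ways. Ret-driven fluorescence is not limited to 1 class of sensory neuron, so each value is an average over the classes the gate let through. Library A pooled 100 ganglia of 5 embryos (3 male and 2 female) and library B 100 ganglia of 6 embryos (2 male and 4 female). Library D pooled 80 ganglia of 4 embryos (3 male and 1 female). Because the samples are bulk pools, a lower value can come from fewer cells that express a gene or from less RNA in each cell, and these cannot be told apart.

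As background, stathmins bind tubulin dimers and promote the shrinking of microtubules, an activity that phosphorylation switches off. STMN1 is cytosolic and is also abundant in dividing cells, whereas STMN2 (also called SCG10), STMN3 (SCLIP) and STMN4 (RB3) are largely neuronal and are held on membranes by palmitoylated cysteines near their amino terminus. GAP-43, BASP1 and MARCKS are acidic proteins that sit on the inner face of the growth-cone membrane, bind calmodulin and acidic phospholipids, and are substrates of protein kinase C. Stathmins and GAP-43 are classic products of embryonic sensory neurons that extend axons. CEND1 is a neuronal membrane protein linked to the exit of precursors from the cell cycle. SPRR1A is an epidermal envelope protein that injured adult sensory neurons are known to switch on during regeneration.

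The coding starts are shown because they carry the feature that sets the family members apart, the membrane anchor. Each is read 5′ to 3′ from the principal coding transcript of GENCODE M21 (build GRCm38), 90 bases for stathmins, with cysteine codons in capitals.
Stmn1: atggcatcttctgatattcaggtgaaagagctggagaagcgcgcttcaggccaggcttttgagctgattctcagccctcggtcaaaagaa
Stmn2: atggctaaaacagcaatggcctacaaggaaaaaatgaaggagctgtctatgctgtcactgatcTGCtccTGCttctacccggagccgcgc
Stmn3: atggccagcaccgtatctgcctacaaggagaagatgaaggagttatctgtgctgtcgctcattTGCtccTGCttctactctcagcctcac
Stmn4: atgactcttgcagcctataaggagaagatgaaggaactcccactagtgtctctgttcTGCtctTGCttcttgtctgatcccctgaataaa
The 30 opening codons of Stmn2 and Stmn3 held cysteine codons at positions 22 and 24 and those of Stmn4 at 20 and 22, counted from 1 at the start codon. Stmn1 held 0 cysteine codons in these 30 and 0 in its whole coding sequence of 149 codons.

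The same comparison was made for the other growth-cone proteins over 30 bases, with cysteine codons of Gap43, and the glycine codon that follows the start codon in the others, in capitals. Glycine at that place is the acceptor of the myristoyl group in MARCKS, MARCKSL1 and BASP1.
Gap43: atgctgTGCTGTatgagaagaaccaaacag
Basp1: atgGGAggcaagctgagcaagaagaagaag
Marcks: atgGGTgcccagttctccaagaccgcagcg
Marcksl1: atgGGCagccagagctctaaggctccccgg
Gap43 held cysteine codons at positions 3 and 4 and no glycine codon after its start. When coding sequences were aligned, the stathmins shared between 69.6% (Stmn1 and Stmn3) and 73.6% (Stmn1 and Stmn2) of aligned bases, gaps left out. Marcks and Marcksl1 shared 70.0% of 601 aligned bases, with coding lengths of 930 and 603 bases. Gap43 and Basp1 shared 57.1% of 636 aligned bases, with no identical run longer than 10 bases.

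Sequence overlap decides how far the counts of these genes can be trusted. Of all 50-base windows of the principal transcripts, 0 were found in another annotated gene for Stmn2, Stmn3, Stmn4, Gap43, Basp1, Sprr1a and Cend1. Marcks shared 0.175% and Marcksl1 1.61% of windows. Stmn1 shared 36.5%, nearly all with the processed pseudogene Gm11223, which itself received 257, 267 and 831 counts in A, B and D. How reads with several matches were counted is not given in the sources used here, so the level of Stmn1 is uncertain. With the counts of Gm11223 added, the mean of Stmn1 rose from 381 to 404 TPM (an alternative added after seeing the data). That addition is not an upper limit, since it would miss any reads left out for having several matches. A microRNA gene with 0 counts, Gm23634, also lies within an exon of Stmn1, and no other member shared exon bases with a deposited gene.

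Total counts were 20181558, 20355302 and 29061086 (A, B, D), and the members took between 1.48% (A) and 1.98% (D) of them. Levels are given as TPM (counts corrected for gene length and scaled to the same total in every library) so that genes can be compared. Each mean below is over the 3 libraries ± SD (n = 3), and sets of 3 values are in the order A, B, D. Sensory neuron markers were present throughout: 10 of 10 reached 1 TPM, led by Tubb3 at 14755 ± 2579 TPM. They summed to 29832, 26087 and 23951 TPM in A, B and D, but the markers did not move together. Tubb3 (17732, 13327 and 13207 TPM) and Nefl (5598, 6082 and 3122 TPM) were lowest in D. The median of the list was highest in D (761, 761 and 1004 TPM). Library D stood further from A and B than these did from each other, with correlations of log2 CPM across genes of 0.954 and 0.956 against 0.972. Mitochondrial genes took 1.72%, 1.14% and 2.75% of counts. Of 6 erythroid markers, 5 reached 1 TPM, and their sum was 84.8, 74.8 and 304 TPM.

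The members were far above the typical gene. Their median was 608, 555 and 567 TPM in A, B and D, with a mean of 576 ± 27.6 TPM, against 10.6 ± 1.78 TPM for the genes that average at least 1 TPM. The level was not particular to them: the median of the sensory neuron markers was higher, at 842 ± 141 TPM. Of the 10 members, 9 averaged at least 1 TPM, as did 33.6% of all genes listed. The same 9 also averaged at least 100 TPM, against 3.96% of all genes. Stmn2, Gap43 and Stmn3 averaged at least 1000 TPM, a level that 0.324% of all genes reached. Together the 10 genes summed to 24489, 24159.8 and 27719.5 TPM, or 2.45%, 2.42% and 2.77% of all TPM.

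**Figure D1:**
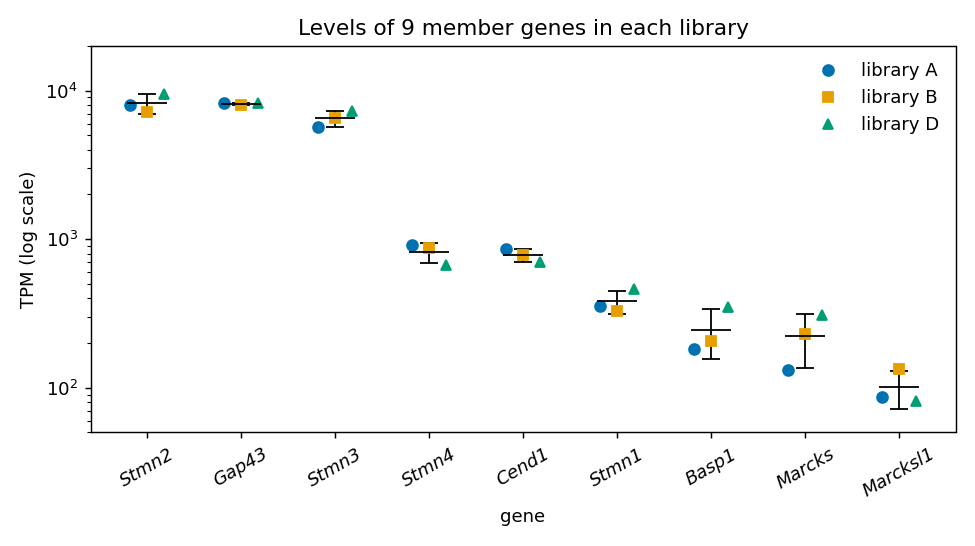
TPM (log axis) of the 9 members that average at least 1 TPM, in order of their mean, with 1 point per library and a bar for the mean ± SD of 3 libraries. Stmn2, Gap43 and Stmn3 lie between 5676 and 9568 TPM, and the other 6 genes below 1000 TPM; Sprr1a, with 0, 0 and 1 counts, is not drawn.

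The stathmin family was dominated by its membrane-anchored neuronal members. Stmn2 (ENSMUSG00000027500, chromosome 3, 8509527 to 8561604, GRCm38.p2, 5 exons in its principal transcript) stood at 8033, 7136 and 9568 TPM (A, B, D). It was among the 10 highest of all genes in every library, at ranks 8, 9 and 10. Stmn3 (ENSMUSG00000027581, chromosome 2, 181306459 to 181314500, 5 exons) stood at 5676, 6524 and 7342 TPM, at ranks 14, 13 and 13. The range of Stmn3 overlapped that of Stmn2, but within each library Stmn2 was the higher (log2 ratio 0.34 ± 0.19, 1.26-fold). Stmn4 (ENSMUSG00000022044, chromosome 14, 66344296 to 66361680, 6 exons) reached 917, 871 and 674 TPM, 10.1-fold below Stmn2 (log2 Stmn2/Stmn4 3.33 ± 0.43). Stmn1 (ENSMUSG00000028832, chromosome 4, 134468320 to 134473843, 5 exons) was the lowest, at 356, 329 and 459 TPM, 21.7-fold below Stmn2 (log2 Stmn2/Stmn1 4.44 ± 0.06). These folds depend on the length used: the deposited length of Stmn1 is 1922 bases and its principal transcript 1060, and with principal transcript lengths, chosen after seeing the data, Stmn2 was 11.0-fold above Stmn1 and 6.28-fold above Stmn4. As CPM, Stmn2 was 2.12-fold above Stmn3.

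These differences can be read as the make-up of the family. Of the summed stathmin level, Stmn2 took 51.6% ± 3.07, Stmn3 40.8% ± 3.01, Stmn4 5.24% ± 1.31 and Stmn1 2.38% ± 0.164. With principal transcript lengths Stmn1 took 4.30% ± 0.323 and Stmn4 7.68% ± 1.88. The order was the same in all 3 libraries. The ratio of Stmn2 to Stmn1 was the steadiest of all 36 member pairs compared, with a log2 range of 4.38 to 4.50. Stmn4 lost ground in D, where its share was 3.74% against 6.12% in A and 5.86% in B. For Stmn1, found in dividing cells, cell cycle markers were low: 7 of 8 reached 1 TPM, Mki67 averaged 0.364 TPM and the highest, Pcna, 27.4 ± 2.27 TPM. The summed level of these markers was 65.7, 82.6 and 58.3 TPM in A, B and D. Of the 8 markers only Pcna was highest in D, at 24.8, 28.4 and 29.0 TPM, while Mki67 was highest in A and the others in B. Stmn1 was highest in D, and the part of dividing cells in its level was not tested.

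**Figure D2:**
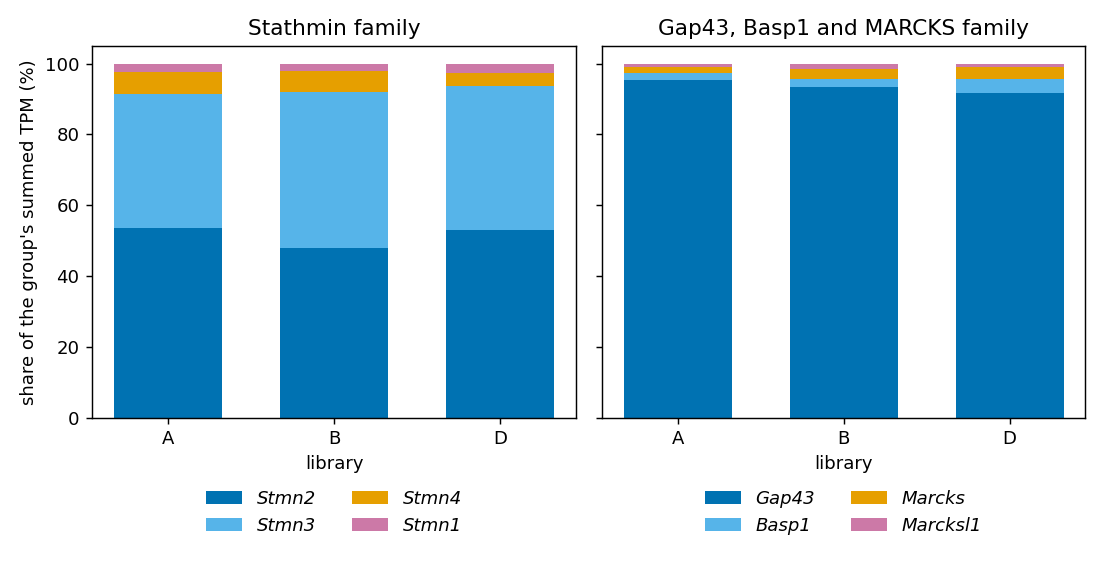
Shares (%) of the summed TPM taken by each stathmin (left) and by Gap43, Basp1, Marcks and Marcksl1 (right), with 1 stacked bar per library. Stmn2 fills 48.0% to 53.6% and Stmn3 37.9% to 43.9% of the stathmin bars, and Gap43 fills between 91.7% and 95.3% of the others.

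Set against their binding partner, the stathmin sum was a fraction of 0.339, 0.380 and 0.429 of the tubulin sum in the same libraries. The 6 tubulin genes listed summed to 44152, 39106 and 42049 TPM, led by Tuba1a (17626 ± 1281 TPM), Tubb3 and Tubb5 (4826 ± 54.7 TPM). Tuba1b was the lowest of them, at 449 ± 34.8 TPM. These are ratios of RNA and say nothing of the amount of protein.

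Gap43 stood apart from the other membrane-bound phosphoproteins. Gap43 (ENSMUSG00000047261, chromosome 16, 42248442 to 42340651, 3 exons) was at 8245, 7951 and 8233 TPM (A, B, D). In TPM this was the narrowest span of the 9 detected members (coefficient of variation 2.05%). As CPM Gap43 was at 4718, 4738 and 5583, a wider span for its level than that of Cend1 (573, 542 and 555 CPM). On deposited lengths the level of Gap43 did not differ from that of Stmn2 beyond the spread between libraries. The log2 ratio of Stmn2 to Gap43 was -0.04, -0.16 and 0.22 in A, B and D, with a mean of 0.01 ± 0.19. As CPM, Stmn2 was the higher in every library (log2 0.33 ± 0.19), and with principal transcript lengths Gap43 was (log2 Stmn2/Gap43 -0.22 ± 0.19), so their order rests on the length used. Gap43 was above Stmn3 in each library (log2 ratio 0.33 ± 0.19, 1.26-fold). Of the level summed over Gap43, Basp1, Marcks and Marcksl1, Gap43 took 95.3%, 93.3% and 91.7% (A, B, D).

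Basp1, which shares the growth-cone membrane with GAP-43 and can partly stand in for it, was 34.5-fold lower (log2 Gap43/Basp1 5.11 ± 0.49). Basp1 (ENSMUSG00000045763, chromosome 15, 25363285 to 25413764, 2 exons) stood at 184, 205 and 349.6 TPM. Marcks (ENSMUSG00000069662, chromosome 10, 37133375 to 37138920, 2 exons) stood at 132, 231 and 310.4 TPM, 38.5-fold below Gap43 (log2 5.27 ± 0.63), or 14.5-fold as CPM. Both were lowest in A and highest in D. Their order was not settled, since Basp1 was above Marcks in A and D and below it in B (log2 ratio 0.16 ± 0.32). Marcksl1 (ENSMUSG00000047945, chromosome 4, 129513581 to 129515985, 2 exons) was at 87.2, 133 and 81.4 TPM, highest in B. Marcks exceeded Marcksl1 2.16-fold (log2 ratio 1.11 ± 0.72), though the log2 ratio ran from 0.60 in A to 1.93 in D, and as CPM the fold was 5.44.

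The base composition of these transcripts differed as well. The coding sequences of Marcks and Basp1 held 75.4% and 74.2% G and C, against at most 57.3% in the 4 stathmins, 55.6% in Gap43 and 62.7% in Marcksl1. Whether composition affected the counts during amplification was not tested.

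Cend1 (ENSMUSG00000060240, chromosome 7, 141426446 to 141429491, 2 exons) reached 859, 781 and 703 TPM (A, B, D). It lay beside Stmn4: the log2 ratio of Stmn4 to Cend1 was 0.09, 0.16 and -0.06 (mean 0.06 ± 0.11), so on deposited lengths these genes did not differ beyond the spread. Stmn4 was above Cend1 in every library as CPM (log2 0.17 ± 0.11) and with principal transcript lengths (0.59 ± 0.11). Cend1 was 10.5-fold below Gap43 and 2.06-fold above Stmn1 (log2 1.04 ± 0.37), but with principal transcript lengths Cend1 and Stmn1 lay within the spread (log2 0.22 ± 0.37).

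Of the 45 pairs of members, 36 were compared, those whose genes both reached 10 counts per library, and 33 kept the same order in A, B and D, against 34 as CPM and 34 with principal transcript lengths. The exceptions were the neighbours in level named above: Stmn2 and Gap43, Stmn4 and Cend1, and Basp1 and Marcks. The two-sided exact sign-flip permutation test over libraries gave p = 0.25 for the 33 pairs, the smallest value that 3 libraries allow, p = 1 for Stmn2 and Gap43, and p = 0.5 for the other pairs. No pair could pass 0.05 in this design. The order of the means was Stmn2, Gap43, Stmn3, Stmn4, Cend1, Stmn1, Basp1, Marcks and Marcksl1, and among the remaining neighbours in that order each mean log2 ratio on deposited lengths was beyond 1 SD from 0. As CPM, without length correction, Marcks passed above Stmn1 (log2 Stmn1/Marcks -0.24 against 0.84) and Basp1 (log2 Basp1/Marcks -0.97), its deposited length of 4048 bases being the longest of the 10.

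Sprr1a, the member tied to adult nerve injury, was at the limit of detection. Sprr1a (ENSMUSG00000050359, chromosome 3, 92483952 to 92485895, 2 exons) had 0, 0 and 1 counts (A, B, D), and for the count in D the exact 95% Poisson interval runs from 0.0253 to 5.57 counts. On the one-sided limit of 3 counts, a count of 0 allows up to 0.491 TPM in A and 0.467 TPM in B, while the upper end of the two-sided interval used for D is 3.69 counts for a 0. These limits cover counting error only. The whole Sprr family was scarce: of 16 genes listed, Sprr1a included, 12 had 0 counts in every library and none had more than 1 count in any. The nearest genes with at least 10 counts in every library were Gm9774, 55.9 kb away (36, 29 and 55 counts), and Gm4202, 205 kb away on the other side (1533, 1540 and 1650 counts). Of 8 epidermal markers, 1 reached 1 TPM (Krt10, 20.9 ± 5.41 TPM), and Krt5, Sprr1b and Sprr3 had 0 counts. Krt14 had 14, 11 and 21 counts.

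A pair of promoters is shown because, among the 5 members matched to RefSeq (GRCm38.p6) promoters, these genes have the highest and the lowest level, and the 250 bases before the RefSeq start are printed 5′ to 3′, with CG dinucleotides (Stmn3) or TATAAA (Sprr1a) in capitals. That of Stmn3 is chr2:181314501-181314750 and that of Sprr1a chr3:92485882-92486131, both on the minus strand. The RefSeq start of Sprr1a lies inside the gene span of the deposited files, so its window reaches into that span.
Stmn3: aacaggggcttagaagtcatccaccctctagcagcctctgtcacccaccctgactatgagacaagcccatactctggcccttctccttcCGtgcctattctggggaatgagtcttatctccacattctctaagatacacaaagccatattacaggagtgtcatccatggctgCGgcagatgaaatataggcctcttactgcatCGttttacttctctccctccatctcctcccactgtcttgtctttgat
Sprr1a: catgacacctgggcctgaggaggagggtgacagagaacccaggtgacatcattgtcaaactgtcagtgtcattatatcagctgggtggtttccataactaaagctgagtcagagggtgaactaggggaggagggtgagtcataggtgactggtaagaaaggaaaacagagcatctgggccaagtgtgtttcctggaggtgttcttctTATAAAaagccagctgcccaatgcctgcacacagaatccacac
The Sprr1a window held 0 CG dinucleotides, while 92.1% of 32851 promoters held at least 1, and it held TATAAA 43 bases before the RefSeq start. TATAAA, searched on both strands, was in 12.4% of promoters and in none of Stmn3, Basp1, Marcksl1 and Cend1. The highly expressed Stmn3 had 3 CG dinucleotides and Cend1 5, under the median of 6, whereas Marcksl1 had 12 and Basp1 30. CG content and level therefore did not follow the same order among these 5 genes. A match is a description of the letters and not evidence of a bound factor.

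Differences between the libraries were tested for each gene against those of other genes of like level. In this edgeR goodness-of-fit test (Benjamini-Hochberg adjusted), 0 of the 9 members tested were called as varying, against 24 of 13530 genes, or 0.177%. By DESeq2 dispersion outliers the count of members was also 0. The dispersion was estimated from the same 3 libraries, so a spread common to genes of like level is not called. A member that was not called need not have been constant. At an unadjusted p under 0.05, 2 members passed, Marcks and Basp1, as did 827 of all genes tested, or 6.11%. On the TMM-scaled log2 CPM of this test, Marcks was at 7.64, 8.45 and 9.21 (A, B, D), a 2.98-fold range (adjusted p = 0.679). Basp1 was at 6.98, 7.15 and 8.25, a 2.41-fold range (adjusted p = 0.769). The smallest adjusted p of any member lay between 0.668 and 0.997 over the alternative edgeR settings.

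The other members varied less. Stmn1, Stmn2 and Stmn3 were each highest in D on that log2 CPM scale, by 0.76, 0.67 and 0.61 above the mean of A and B, with fold ranges of 1.75, 1.69 and 1.64. Gap43 was 0.36 above it, while Stmn4 (1.08-fold range) and Cend1 (1.13-fold range) were nearly level. Marcksl1 ran 1.53-fold from A to B. Across all genes tested the median range was 0.68 on the log2 scale, against 0.71 over the 9 members. Among the 200 genes nearest in level to each member the median range was narrower, between 0.50 (Stmn1) and 0.61 (Marcksl1). Basp1, Marcks, Stmn1, Stmn2 and Stmn3 ranged more widely than the median of their neighbours, Marcksl1 was close to it (0.62), and Stmn4, Cend1 and Gap43 ranged less. The scale matters for these comparisons between libraries: Stmn4 fell from 917 TPM in A to 674 in D, but only from 660.3 to 575 CPM.

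Markers of other cells moved with some of these values. Of 7 Schwann cell and satellite glia markers, 6 reached 1 TPM, led by S100b (343 ± 92.5 TPM), and Foxd3 was the lowest at 0.311 TPM. Their summed level was 487, 784 and 878 TPM (A, B, D), the order that Basp1 and Marcks also followed. Of 7 mesenchyme markers, 5 reached 1 TPM, and the sum was 17.1, 65.0 and 13.5 TPM, highest in B, as Marcksl1 was. Their most abundant gene, Col1a1, varied between libraries in the edgeR test (adjusted p = 5.81e-05), as did the erythroid genes Hbb-bs (adjusted p = 0.0223) and Hbb-bt (adjusted p = 0.0267), highest in D. Macrophage markers (3 of 5 at 1 TPM, sum 8.44, 4.23 and 3.48 TPM, led by Cd68) and endothelial markers (1 of 4, sum 4.43, 3.71 and 2.32 TPM, led by Pecam1) stayed low. The part of these cells in the values of Basp1, Marcks and Marcksl1 was not tested.

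**Figure D3:**
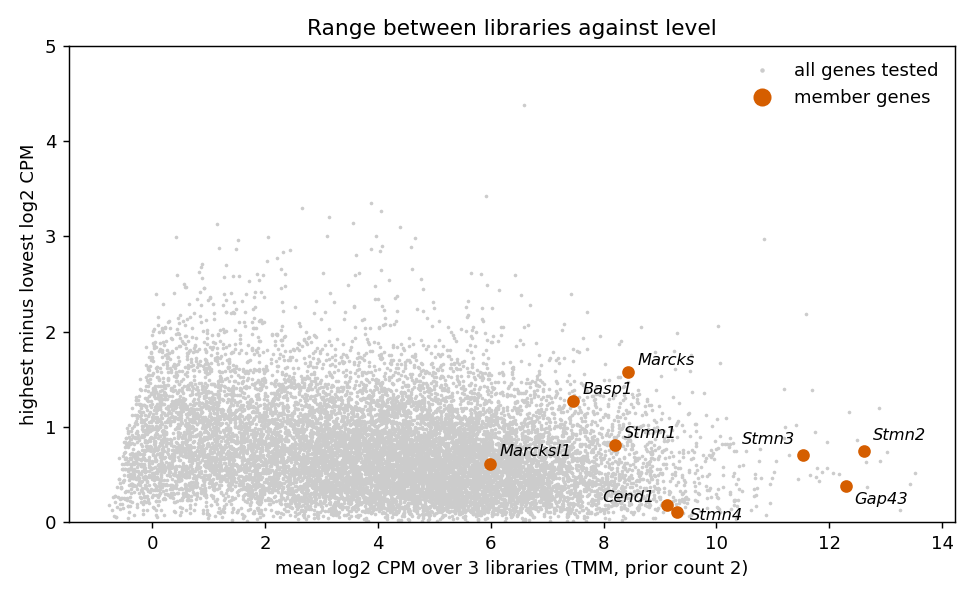
Highest minus lowest log2 CPM over the 3 libraries against the mean log2 CPM, with all 13530 genes tested in grey and 9 members in orange. Marcks (1.57) and Basp1 (1.27) lie highest among the members, and Stmn4 (0.10) and Cend1 (0.18) lowest; the value axis ends at 5.

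Genes of the pathways around these proteins were described from 7 lists. GAP-43 binds calmodulin in its unphosphorylated form and is phosphorylated by protein kinase C. In the calmodulin, protein kinase C and IQ-motif list, 11 of 13 genes reached 1 TPM (median 32.1 ± 7.38 TPM). Calm2, a calmodulin gene, was the highest of the list at 6713 ± 609 TPM, of the order of Gap43 itself, and Calm3 stood at 396 ± 80.3 TPM.

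Kinases that act on stathmins and growth-cone proteins, listed together with the CDK5 activator Cdk5r1 and the JNK scaffolds Mapk8ip1 and Mapk8ip3, were present at lower levels. All 16 genes of the list reached 1 TPM, with a median of 17.4 ± 1.92 TPM. Cdk5, a kinase of postmitotic neurons, was highest at 288 ± 11.7 TPM, followed by Camk2g (146 ± 33.3 TPM) and Pak1 (104 ± 20.1 TPM), and Camk2a was lowest at 3.97 ± 1.04 TPM. Among the phosphatase subunits, 5 of 6 reached 1 TPM (median 32.0 ± 2.73 TPM), led by Ppp2cb (64.6 ± 5.73 TPM), the calcineurin subunit Ppp3ca (63.2 ± 21.8 TPM) and Ppp3r1 (35.7 ± 3.04 TPM). Ppp1ca, a phosphatase gene that most cells use, had 0, 0 and 1 counts. It lies in a run of 13 adjacent genes on chromosome 19 (4135425 to 4233631) with at most 1 count each over all libraries, so that its value, and a 0 in these files in general, need not mean that a gene was silent.

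Lipid anchoring enzymes were all expressed, with 9 of 9 at 1 TPM and a median of 33.5 ± 11.0 TPM. Nmt2 (153 ± 15.3 TPM) and Nmt1 (71.2 ± 11.1 TPM) encode the N-myristoyltransferases, and Lypla2 (108 ± 61.7 TPM) a thioesterase that removes palmitate. Zdhhc7, a palmitoyltransferase, was lowest at 6.42 ± 1.70 TPM. Of the RNA-binding proteins, 8 of 8 reached 1 TPM (median 34.9 ± 7.97 TPM). The neuronal Hu genes led this list: Elavl4, whose product HuD binds and stabilises Gap43 mRNA, at 414 ± 66.7 TPM, Elavl2 at 165 ± 56.8 TPM and Elavl3 at 72.5 ± 13.5 TPM. Igf2bp1 was lowest at 8.33 ± 2.71 TPM.

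Regeneration-associated genes, which rise with Gap43 and Sprr1a after injury of adult nerves, were all detected. All 13 reached 1 TPM (median 35.9 ± 6.83 TPM), led by the neuropeptide gene Gal (1332 ± 219 TPM), the transcription factor gene Sox11 (361 ± 8.91 TPM) and Klf6 (128 ± 8.90 TPM). Hspb1, a small heat shock protein gene, was lowest at 1.29 ± 0.379 TPM. No gene of the 7 pathway lists varied between libraries in the edgeR test at an adjusted p under 0.05.

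**Figure D4:**
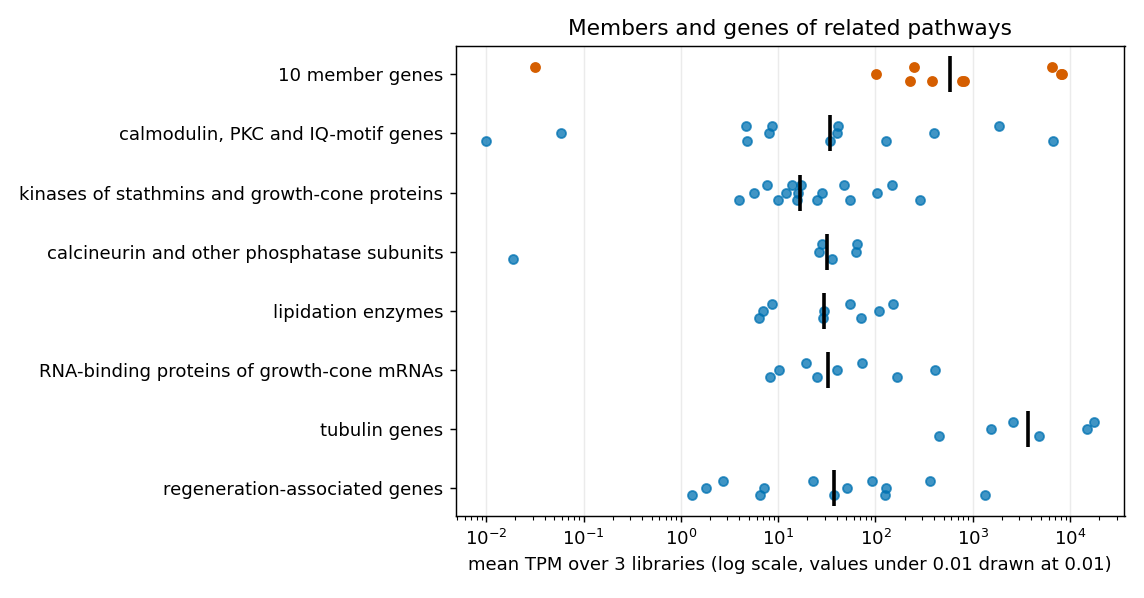
Mean TPM over 3 libraries (log axis) of the 10 members (orange) and of each gene of the 7 pathway lists (blue), with a black bar at the median of each row. The member median lies above those of the pathway lists except the tubulin genes. It lies below that of the sensory neuron markers, which are not drawn. Sprr1a and a few listed genes lie below 0.1 TPM, and means under 0.01 TPM are drawn at 0.01.

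Likeness to other genes was measured as the root mean square difference of log2(TPM + 0.1) over the 3 libraries, among 21350 nuclear protein-coding genes without ribosomal protein genes or other members. With 3 libraries this reflects mainly the level. Nearest to Stmn2 was Actb, the beta-actin gene (0.081), which was also nearest to Gap43 (0.17). Nearest to Stmn3 was Calm2 (0.088), to Stmn1 Rack1 (0.091), to Stmn4 Hspa8 (0.074) and to Cend1 Cct8 (0.10). Basp1 lay nearest to Tomm7 (0.088), Marcks to Sdhaf4 (0.17) and Marcksl1 to Tmem41a (0.065). The genes next in order were Selenow for both Stmn2 (0.20) and Gap43 (0.27), Actb for Stmn3 (0.30), Map1lc3a for Stmn1 (0.12), Cct8 for Stmn4 (0.086), Arl6ip1 for Cend1 (0.11), Krtcap2 for Basp1 (0.091), Smim26 for Marcks (0.18) and Eif6 for Marcksl1 (0.11).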

How the data were processed

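RNA of fluorescence-sorted ganglion cells was sequenced in 3 libraries of 1 group. The deposited tables give raw counts as whole numbers for each Ensembl gene, with its exon coordinates and length. The deposited CPM equals the count scaled to the library total, and the deposited RPKM equals CPM per kilobase of gene length. Per the submitters' processing notes, Subread, featureCounts 1.4.5 and GRCm38.p2 were used; the settings, strand included, are not stated in those notes. Nothing in the labels says that repeated reads of 1 molecule were removed, so intervals cover counting error only.

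Symbols came from GENCODE M21 (40254 of 41388 identifiers matched). TPM was computed from counts and deposited lengths. Variation between libraries was tested with edgeR 4.0.16 (R 4.3.3; TMM, filterByExpr, intercept-only fit, trended dispersion, deviance against chi-square with 2 degrees of freedom), because the quasi-likelihood test needs more than 1 group; the procedure was tested on simulated data. DESeq2 1.42.0 was an alternative. Other values used Python 3.11.15, numpy 2.4.6, pandas 2.3.3, scipy 1.17.1, Biopython 1.88 and matplotlib 3.10.9. The members and the 15 gene lists were chosen with earlier results of these data known. Named from each pathway list were the 3 highest and the lowest gene and any that varied, from each marker list the highest and those at 0, and for each member the 2 nearest genes; some genes this rule names are not reported here. Other marker genes were named after their values were seen. Pools came from several embryos, so p-values measure the spread between pools, biological and technical alike.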

Additional observations from a re-analysis of the deposited data

How the results depend on the processing

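No paired analysis was possible because the design has 1 group. Of the 36 ratios between members, all kept their direction with a protein-coding nuclear denominator, thinned counts, and without A or without B. Stmn2/Gap43 turned without D, its log2 values ranging from -0.10 to 0.090 over the libraries left out, and with principal transcript lengths (-0.22). As CPM, Stmn1/Marcks (-0.24) and Basp1/Marcks (-0.97) turned; the missing length correction is the only change there. The members' sum was 16529 as CPM and 28554 TPM with the protein-coding denominator, against 25456 TPM. Ribosomal protein and hemoglobin genes were also left out of that denominator. The number of genes that vary between libraries ranged from 2 to 27 when 1 library was left out (7 without A, 2 without B, 27 without D), and DESeq2 dispersion outliers numbered 4. It stayed within 1.5 times of 24 in the other edgeR settings, and the members called were 0 in each. Depth limits Sprr1a alone among the members.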
